A study of Mus musculus with 48 samples.

Results

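The break sites described here are those of the Igkv3 gene segments nearest to the Jκ cluster of the mouse Igκ locus: Igkv3-7, Igkv3-4, Igkv3-3, Igkv3-2, Igkv3-1 and a site between Igkv3-7 and Igkv3-4 that has no gene in the annotation used. A junction was counted at a site when it lay within 200 bp of the break on chromosome 6. The sites held 372498 of the 7265223 junctions of the Vκ region (67.5 to 70.66 Mb of chromosome 6 on mm9) and of the 8250887 junctions in all 48 libraries. They are 6 of 138 Vκ break sites. They were chosen by their usage, since 5 of them were nearly absent from *Ku70*-/- libraries, and the difference in usage between genotypes is a description of that choice and was not tested.

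Each library listed the junctions of a single bait end at the Jκ1 break, read by HTGTS-JoinT-seq, a method that amplifies outward from a fixed bait and sequences what it was joined to. The cells were *vAbl* pro-B cells, mouse B cell progenitors transformed by the Abelson kinase. WT and *Ku70*-/- cells were either cycling or treated for 96 h with STI-571 (3 μM), which blocks that kinase and arrests the cells, together with DMSO, with L67 (5 μM) or with L82-G17 (25 μM). L67 and L82-G17 are inhibitors of DNA ligases. Every combination of genotype, treatment and bait had 3 libraries, 24 per genotype. The study's methods name 1 clone for WT (clone B) and another (clone B1) for the Ku70-deficient line, so loss of Ku70 and other differences between the lines cannot be told apart. The junction lists hold no measure of Ku70 itself or of the cells' identity. The study's legends describe its experiments as biologically repeated, but the labels tie no library to a culture and the study does not describe the libraries with L67 or L82-G17, so p-values measure the spread between these libraries, which may be technical.

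RAG1/2 cuts between a coding segment and its recombination signal sequence (RSS), a heptamer and a nonamer separated by a spacer. The cut leaves a hairpin-sealed coding end (CE) and a blunt signal end (SE) on each partner. Nonhomologous end joining, which starts with Ku70 and Ku80, joins the Vκ coding end to the Jκ coding end and the signal ends to each other. In the deletional orientation the DNA between Vκ and Jκ leaves the chromosome with the signal joint. All 6 sites lie in this orientation, so the Jκ1CE bait reads their coding joints on the chromosome and the Jκ1SE bait reads the signal joints of the excised DNA.

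The ends are shown because they are nearly alike while usage of the sites was not. Each line gives, on the + strand of mm9, the last 20 coding bases in lower case, then the RSS with heptamer and nonamer in capitals. The Jκ1 line runs the other way, from nonamer to the first coding bases.
Igkv3-7 (chr6:70558011-70558058): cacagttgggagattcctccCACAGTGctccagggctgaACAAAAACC
unnamed site (chr6:70613870-70613917): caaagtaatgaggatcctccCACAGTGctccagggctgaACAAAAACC
Igkv3-4 (chr6:70622352-70622399): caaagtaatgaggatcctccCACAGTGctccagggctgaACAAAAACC
Igkv3-3 (chr6:70637509-70637556): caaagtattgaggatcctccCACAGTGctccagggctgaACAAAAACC
Igkv3-2 (chr6:70649042-70649089): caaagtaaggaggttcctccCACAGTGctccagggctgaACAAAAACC
Igkv3-1 (chr6:70654152-70654199): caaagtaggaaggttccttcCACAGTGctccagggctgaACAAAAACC
Igkj1 (chr6:70672517-70672575): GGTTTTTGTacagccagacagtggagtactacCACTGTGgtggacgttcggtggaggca

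All 6 RSSs had the same 28 bases, heptamer CACAGTG, a 12-base spacer and nonamer ACAAAAACC. Read outward from the break in the same way, these 28 bases stood at 8 of the 138 sites (5.80%); the remaining sites were Igkv3-12 and Igkv3-10. The heptamer alone stood at 111 sites (80.4%) and the nonamer alone at 39 (28.3%). Only Igkv3-1 ended in TTC rather than TCC at the coding end. Over the 200 bases on each side of the break, the 15 pairs of sites were 87 to 95.5% identical on the coding side and 48 to 96% on the signal side. Identity was counted position by position without gaps, so an inserted or deleted base lowers it. The unnamed site and Igkv3-4, whose printed bases do not differ, were 91.5% identical on the coding side and 48% on the signal side. Whether reads of near-identical copies were placed at the wrong copy was not tested.

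Each break fell directly after the 3′ end of an annotated Vκ gene, except at the unnamed site. On mm9 these are Igkv3-7 (ENSMUSG00000076598.2, bases 70557732 to 70558030 of chromosome 6), Igkv3-4 (ENSMUSG00000076600.1, 70621783 to 70622371), Igkv3-3 (ENSMUSG00000076601.1, 70636940 to 70637528), Igkv3-2 (ENSMUSG00000076602.1, 70648462 to 70649061) and Igkv3-1 (ENSMUSG00000076603.1, 70653572 to 70654171). Jκ1 is Igkj1 (ENSMUSG00000076604.1, 70672556 to 70672593). Igkv3-1 lay 18.384 kb from the Jκ1 break, Igkv3-2 23.494 kb, Igkv3-3 35.027 kb, Igkv3-4 50.184 kb, the unnamed site 58.666 kb and Igkv3-7 114.525 kb. No other Vκ break site lay between Igkv3-7 and Igkv3-1, and the nearest one on the far side of Igkv3-7 was 12233 bp away.

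Usage is given as junctions at a site per 1000 junctions of the Vκ region in the same library. Coding end bait libraries of WT cells held 20210 to 29432 Vκ junctions when cycling and 173112 to 362359 when arrested. The corresponding signal end ranges were 19376 to 21264 and 122705 to 341922. Copies made by amplification were kept in the deposited lists, so counting error is larger than these totals imply. At the edge of the 200-bp window, WT libraries held 11 junctions from 151 to 200 bp and 0 from 201 to 250 bp, and *Ku70*-/- libraries held 51 and 32.

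In arrested WT cells the 6 sites ranged from the most used Vκ site of all to one of the less used. With STI-571 and DMSO and the Jκ1CE bait, Igkv3-2 stood at 35.0 ± 0.607 (SD, n = 3), the highest of the 138 sites. Igkv3-7 followed at 26.6 ± 1.40 (SD, n = 3), then Igkv3-4 at 14.5 ± 0.380 (SD, n = 3) and Igkv3-1 at 10.9 ± 0.887 (SD, n = 3). The unnamed site had 5.27 ± 0.286 (SD, n = 3) and Igkv3-3 had 1.78 ± 0.286 (SD, n = 3). No neighbors in this order overlapped between libraries. The median of all sites was 3.97, and Igkv3-2 was used 19.7 times as much as Igkv3-3 although their RSSs were the same. The sites with the same RSS outside the group stood at 29.7 (Igkv3-12) and 18.3 (Igkv3-10). Igkv3-9, whose RSS has the same heptamer and nonamer and differs only in the spacer, stood at 0.826.

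From the Jκ1SE bait the means kept the same order. Igkv3-2 led with 23.6 ± 4.19 (SD, n = 3), ahead of Igkv3-7 with 14.6 ± 0.926 (SD, n = 3) and Igkv3-4 with 9.36 ± 1.09 (SD, n = 3). Igkv3-1 had 7.20 ± 0.662 (SD, n = 3), the unnamed site 6.67 ± 0.382 (SD, n = 3) and Igkv3-3 2.10 ± 0.405 (SD, n = 3). Igkv3-1 and the unnamed site overlapped between libraries and the other neighbors in the order did not. The highest exceeded the lowest by 11.3-fold. Igkv3-2 was rank 10 of the 138 sites from this bait.

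**Figure D1:**
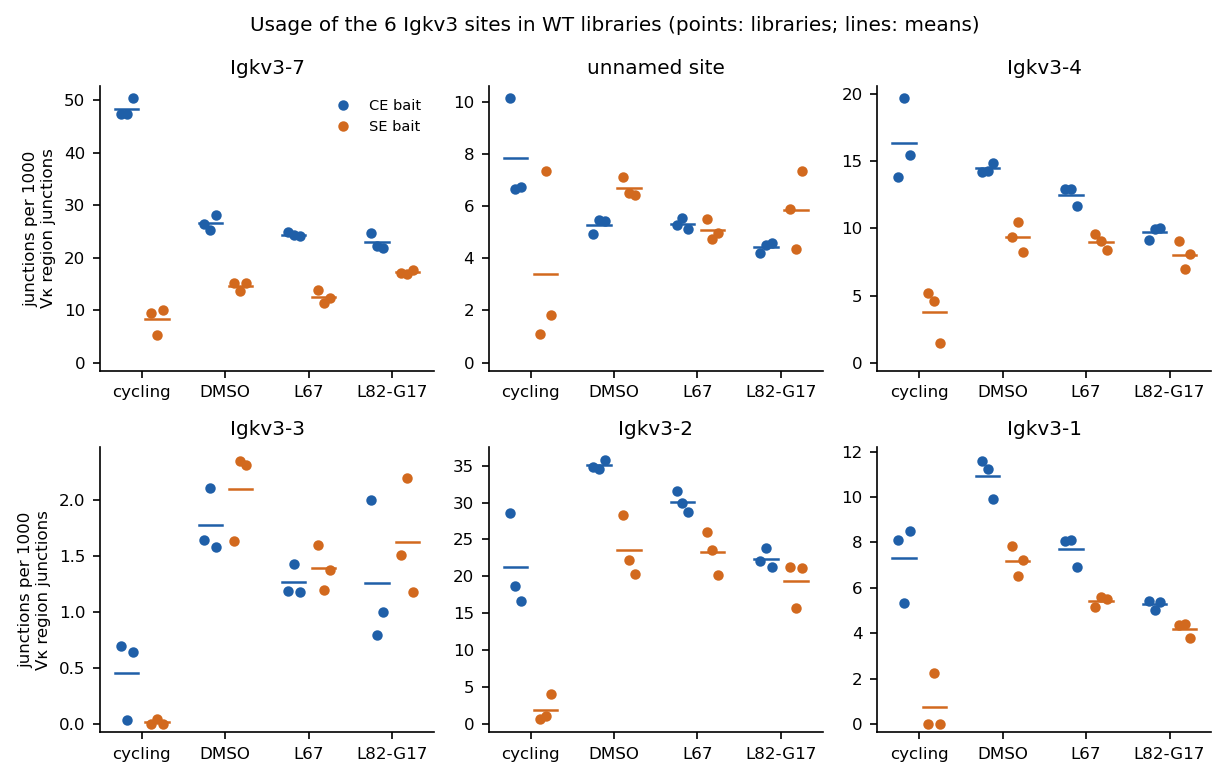
Usage of each site in WT libraries (y axis, junctions per 1000 Vκ region junctions; x axis, treatment), with 1 point per library and a line at the mean of 3. Blue is the Jκ1CE bait and orange the Jκ1SE bait; signal end points of cycling cells lie below all coding end points of cycling cells at every site but the unnamed one and Igkv3-3, where they overlap.

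Coding end usage of these sites changed with arrest in both directions, as did that of Vκ sites at large. Of the 74 sites averaging 50 junctions in both groups, 29.7% were called higher and 31.1% lower. Of the 6 sites, those with enough junctions in both groups kept only the call at Igkv3-7 when each distinct junction was counted once. Igkv3-7 gave 47.4, 47.5 and 50.5 per 1000 in the cycling libraries and 25.4, 26.4 and 28.1 with DMSO. Its usage fell to 0.549 times the cycling level (log2 difference −0.87, SE 0.0920, limma adjusted p = 5.94e-05), with no overlap between groups. The unnamed site gave 6.67, 6.73 and 10.1 when cycling and 4.94, 5.42 and 5.45 with DMSO. Its fall of 0.55 on the log2 scale (SE 0.157, limma adjusted p = 0.0130) also left no overlap. Igkv3-4 stood at 13.9, 15.5 and 19.7 when cycling and at 14.2, 14.3 and 14.9 with DMSO, which overlap (log2 difference −0.16, 95% interval −0.46 to 0.13).

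The 3 sites nearest to Jκ1 went the other way. Igkv3-3 was seen in cycling cells at 0.0366, 0.646 and 0.693 per 1000, from 1 distinct joint in each library, and at 1.58, 1.64 and 2.10 with DMSO. It passed the filter of 50 junctions on average only through the arrested libraries, so its fitted rise of 2.40 on the log2 scale (SE 0.764) is given as a description. Igkv3-2 was at 16.7, 18.7 and 28.6 when cycling and at 34.5, 34.9 and 35.7 with DMSO, a rise of 0.75 (SE 0.176, limma adjusted p = 0.00552). Igkv3-1 gave 5.31, 8.11 and 8.49 when cycling and 9.92, 11.2 and 11.6 with DMSO, a rise of 0.60 (SE 0.174, limma adjusted p = 0.0143). Igkv3-2 and Igkv3-1 did not overlap between groups, against 37.5% of 112 sites with every DMSO library higher and 23.2% with every one lower. Igkv3-3 did not overlap either, which is a description because of how it passed the filter.

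Of the 5 sites that averaged 50 junctions in both groups, 2 were called higher and 2 lower, against 29.7% and 31.1% of the 74 such sites, a restriction chosen after seeing the data. Over all 112 sites tested, 35.7% were called higher and 21.4% lower. The median change of the 5 was −0.16 and that of the 74 was −0.07. Of the other Igkv3 sites 2 averaged enough, Igkv3-12 (−0.43) and Igkv3-10 (−0.92), and both were called lower. Among the other deletional sites 13 of 22 were called higher and 5 lower, and among inversional sites 7 of 47 were called higher and 16 lower. With each distinct junction counted once and a filter of 5 per library on average, Igkv3-7 was called lower (−0.80, against 20.9% of 115 sites). This setting merges amplified copies and was chosen after seeing the data. Igkv3-3 rose by 1.504, a description, since it had 1 distinct joint in each cycling library and passed only through the arrested ones. The rises of Igkv3-2 and Igkv3-1 became −0.07 and 0.20 and the fall of the unnamed site −0.37, none of them called. The part of amplification in these changes was not tested.

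From the Jκ1SE bait Igkv3-7, the unnamed site and Igkv3-4, the only 3 that averaged 50 junctions in both groups, were called higher after arrest, against 26.2% of the 65 such sites and 41.4% of all 111. Igkv3-7 stood at 5.21, 9.50 and 10.0 per 1000 in cycling cells and 13.6, 15.2 and 15.2 with DMSO, a rise of 0.88 on the log2 scale (SE 0.242, limma adjusted p = 0.00923). Igkv3-4 stood at 1.497, 4.58 and 5.22, then at 8.28, 9.35 and 10.5, a rise of 1.47 (SE 0.396, limma adjusted p = 0.00818). Neither overlapped between groups, against 44.1% of 111 sites with every DMSO library higher. The unnamed site stood at 1.08, 1.81 and 7.33, then at 6.42, 6.48 and 7.11, so that its groups overlap. It was called at 1.42 (95% interval 0.18 to 2.66, limma adjusted p = 0.0456). With a filter of 10 junctions on average in place of 50, the difference was still 1.42 but was not called.

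Signal joints of the 3 nearest sites rested on at most 1 distinct joint in each cycling library. Igkv3-2 had 0.658, 1.11 and 4.03 per 1000 when cycling and 20.3, 22.2 and 28.4 with DMSO. Igkv3-3 had 1 junction in 61387 over the 3 cycling libraries and 1.63, 2.31 and 2.35 per 1000 with DMSO, a ratio of pooled counts of 128 (95% counting interval 23.0 to 5076). Igkv3-1 had 47 junctions in 1 cycling library, all the same joint, and 0 in the other libraries, where 3 counts would be 0.141 to 0.155 per 1000, against 6.51, 7.25 and 7.84 with DMSO. These 3 sites passed the filter only through the arrested libraries, so no test is drawn on for them. Their fitted log2 rises, 3.97 for Igkv3-2, 5.07 for Igkv3-3 and 5.34 for Igkv3-1, are descriptions, and the last 2 depend on the value added before taking logs. A count of distinct junctions does not measure usage at this end, since 1 joint made up 92.7 to 98.5% of Igkv3-1 signal end junctions in arrested WT libraries, and what it gave, 2 of 5 sites called higher (against 5.95% of 84 sites) and 3 turned in direction, is not read as usage. Cycling values at the other 3 sites rest on 1 to 5 distinct joints a library. Of the sites averaging enough in both groups, 11 of 13 other deletional ones were called higher and none lower, among them 2 of 2 other Igkv3 sites, and of the inversional ones 3 of 49 were called higher and 24 lower.

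With junctions counted as deposited, the change with arrest was called larger from the signal end than from the coding end at Igkv3-7, the unnamed site and Igkv3-4, against 22.4% of the 58 sites that averaged 50 junctions in both groups of both baits and 28.3% of all 113. The signal minus coding difference of the log2 changes was 1.74 at Igkv3-7, 1.97 at the unnamed site and 1.64 at Igkv3-4, with limma adjusted p from 2.83e-05 to 0.0122. Its fitted values at Igkv3-3 (2.67), Igkv3-2 (3.22) and Igkv3-1 (4.74), where the cycling signal end libraries held few junctions, are descriptions. Among the other deletional sites of the 58, 10 of 13 were called in this direction and none in the other, while 0 of 42 inversional sites were called in this direction and 22 in the other. Distinct junctions counted once, with a filter of 5, do not measure usage at the signal end. Igkv3-2 then had a difference of 1.23, against 2.68% of 112 sites called in this direction. Igkv3-3 had −1.72, against 48.2% called in the other. Both are descriptions, since these sites held at most 1 distinct signal end joint in each cycling library. The remaining sites, at −0.19 to 0.82, were not called.

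Summed over the 6 sites, cycling WT cells had 101.7 per 1000 from the coding end and 18.1 from the signal end, a signal over coding ratio of 0.178. The ratio was 0.676 with DMSO (94.1 and 63.6), 0.698 with L67 (81.2 and 56.7) and 0.853 with L82-G17 (66.0 and 56.3). The other deletional sites had ratios of 0.420 when cycling and 1.33 with DMSO, and the inversional sites 1.41 and 0.856. With DMSO, Igkv3-7 alone was called lower from the signal end (log2 difference −0.86, 95% interval −1.25 to −0.48, limma adjusted p = 0.00121), against 21.2% of the 113 sites. Distinct junctions counted once gave 0.11 there and no call, and leaving out signal end cycling replicate 2 or 3 gave 2 or 3 calls. The other 5 differed by −0.64 to 0.34, with intervals reaching from −2.48 to 1.51.

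**Figure D2:**
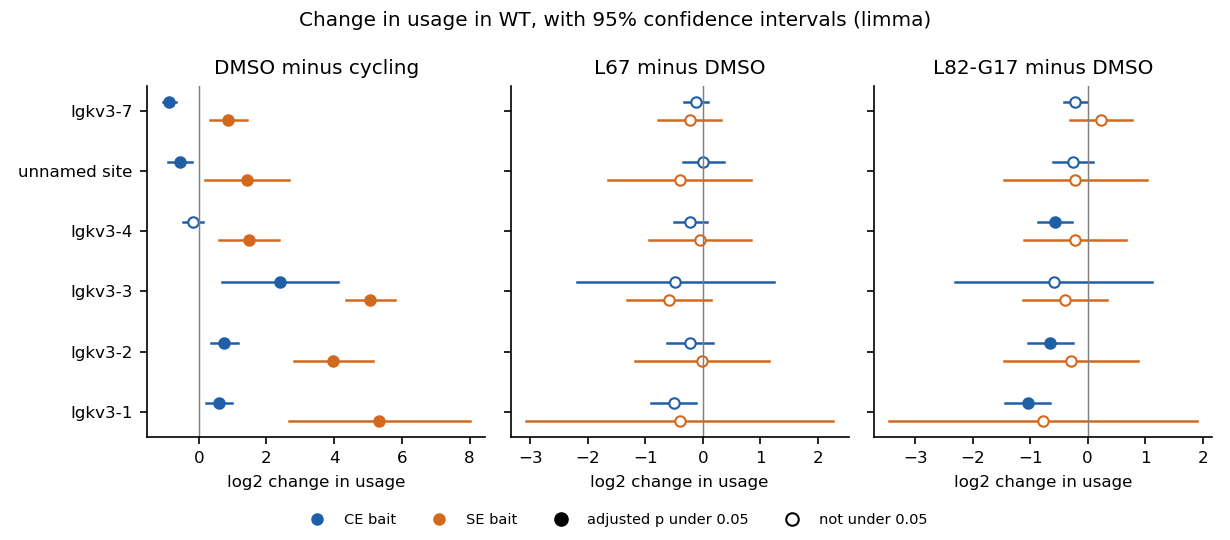
Log2 change in usage (x axis) of each site (y axis) in WT libraries for arrest, L67 and L82-G17, with 95% confidence intervals from limma. Filled points have an adjusted p under 0.05. All signal end points for arrest lie above 0. Those of Igkv3-3, Igkv3-2 and Igkv3-1, and the coding end arrest point of Igkv3-3, are descriptions although filled. The cycling libraries held few junctions there, and these sites passed the filter only through the arrested libraries. The filled L82-G17 points are those of Igkv3-4, Igkv3-2 and Igkv3-1 with the coding end bait.

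L82-G17 lowered coding end usage of 3 of the 6 sites, against 5.36% of the 112 sites called lower. Igkv3-1 went from 9.92, 11.2 and 11.6 per 1000 with DMSO to 5.01, 5.38 and 5.42, 0.484 times as much (log2 difference −1.05, SE 0.174, limma adjusted p = 0.0172). Igkv3-2 went from 34.5, 34.9 and 35.7 to 21.2, 22.1 and 23.8 (−0.65, SE 0.176, limma adjusted p = 0.0386). Igkv3-4 went from 14.2, 14.3 and 14.9 to 9.17, 9.99 and 10.0 (−0.57, SE 0.131, limma adjusted p = 0.0355). No library of one treatment overlapped the other at these sites, against 22.3% of the 112 sites with every L82-G17 library lower.

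The remaining sites were not called with L82-G17, at −0.21 for Igkv3-7 (95% interval −0.42 to −0.01), −0.25 for the unnamed site (−0.60 to 0.10) and −0.59 for Igkv3-3 (−2.30 to 1.12). In the order of distance from Jκ1 the difference was thus largest at the nearest site and smallest at the farthest. Spearman's rho of the difference with distance was 0.13 over the 41 other deletional sites and −0.12 over the 65 inversional sites. The 6 values share their libraries, and the arrest, L67 and L82-G17 contrasts share the DMSO libraries. The median of the 6 was −0.58 and that of all sites 0.04; among the other deletional sites 2 of 41 were called higher and 3 lower, and none of the 3 other Igkv3 sites was called. Leaving out 1 library left 0 to 4 sites called, 0 without DMSO replicate 1 or 2 or L82-G17 replicate 1 or 2, and 1 without DMSO replicate 3, L82-G17 replicate 3 or any L67 library. With distinct junctions counted once and a filter of 5, Igkv3-1 fell by 0.71 (limma adjusted p = 0.00371) and was the only site called lower of 115 (0.87%). When the 9 arrested libraries were fitted alone, a choice made after seeing the data, 5 of the 6 sites were called lower against 18.3% of 115 sites, the exception being Igkv3-3. Coding end libraries with L82-G17 also held fewer Vκ junctions, 173112 to 198515 against 345175 to 362359 with DMSO, and the part of this in the difference was not tested.

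With the signal end bait no site of the 111 was called with L82-G17 (0%; 14 sites and none of the 6 at an unadjusted limma p under 0.05). Igkv3-1 had 6.51, 7.25 and 7.84 with DMSO and 3.79, 4.38 and 4.40 with L82-G17. Its 95% interval ran from −3.45 to 1.90 in the fit that takes 1 spread from all 12 libraries. Fitted over the 9 arrested libraries, Igkv3-1 fell by 0.78 (limma adjusted p = 0.00651), against 8.85% of 113 sites called lower. Igkv3-7 had 16.99, 17.05 and 17.6 with L82-G17 against 13.6, 15.2 and 15.2 with DMSO, a difference of 0.24 (95% interval −0.31 to 0.78). The other 4 differed by −0.39 to −0.22. The signal minus coding difference of the L82-G17 change was called at none of the 6 sites, with values from 0.03 to 0.45.

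L67 changed usage of the sites by less than could be called. With the coding end bait 0 of 112 sites passed (0%; 5 sites at an unadjusted limma p under 0.05, of which Igkv3-1 was 1). Igkv3-1 had 6.92, 8.04 and 8.13 per 1000 with L67, below all 3 DMSO libraries (log2 difference −0.51, 95% interval −0.89 to −0.12, limma adjusted p = 0.894). It was called lower when the 9 arrested libraries were fitted alone (limma adjusted p = 0.0116, against 3.48% of 115 sites). Igkv3-2 had 28.7, 29.97 and 31.5, with −0.22 (95% interval −0.62 to 0.17), and the others differed by −0.48 to 0.01. At 5 of the 6 sites, all but the unnamed one, every L67 library lay below every DMSO library, against 13.4% of the 112 sites. With the signal end bait 0 of 111 sites passed (0%; 3 at an unadjusted limma p under 0.05, none of the 6), and the 6 sites differed by −0.58 to −0.01. The unnamed site, Igkv3-3 and Igkv3-1 lay below DMSO in every L67 library, against 9.01% of the 111 sites. L67 and L82-G17 were given at different doses and were not compared with each other.

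Coding joints of 5 of the 6 sites took the same few forms, and those of Igkv3-1 differed. In WT cells with DMSO the most frequent coding joint at Igkv3-7, the unnamed site, Igkv3-4, Igkv3-3 and Igkv3-2 lacked 3 bases of the Vκ end and none of the Jκ1 end, in 23.99 to 27.7% of coding joints. The second lacked 1 Vκ base and 2 Jκ1 bases, in 12.7 to 16.97%. At Igkv3-1 the leading joint kept the whole Vκ end and lacked 2 Jκ1 bases, 29.8% ± 3.48 (SD, n = 3), against 4.35 to 11.6% at the others, and the joint lacking 3 Vκ bases was at 12.5% ± 0.338 (SD, n = 3). These joints are printed with the Vκ bases in capitals and the Jκ1 bases in lower case, since the leading form at Igkv3-1 was not that of the other sites.
Igkv3-2, 3 Vκ bases lost: AAGTAAGGAGGTTCCgtggacgttcggtgg
Igkv3-2, 1 Vκ base and 2 Jκ1 bases lost: GTAAGGAGGTTCCTCggacgttcggtggag
Igkv3-1, 2 Jκ1 bases lost: TAGGAAGGTTCCTTCggacgttcggtggag
Igkv3-1, 3 Vκ bases lost: AAGTAGGAAGGTTCCgtggacgttcggtgg
Igkv3-1, joint with 1 shared base: AGTAGGAAGGTTCCTtggacgttcggtgga

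The joint lacking 1 Vκ base and 2 Jκ1 bases was recorded 0 times at Igkv3-1, because its letters are those of the last line, where the T before GGAC can belong to either end. That joint made up 12.3% ± 1.03 (SD, n = 3) of Igkv3-1 junctions and is listed with 1 shared base. Of all Igkv3-1 junctions 46.7% kept the whole Vκ end, against 13.9 to 22.9% at the other sites. Among joints with neither shared nor inserted bases, over the 9 arrested libraries, the share with an intact Vκ end was 60.6 to 73.3% at Igkv3-1 and 7.59 to 29.9% at the other 5, with no overlap. The median of the 109 Vκ sites with enough such joints was 17.4%. The 4 sites whose coding end closes in TC, Igkv3-1 among them, ranged from 24.4 to 79.8%, and the 56 closing in CC had a median of 17.6%. The net length change of a joint was taken as bases lost from both ends plus shared bases minus inserted bases. Coding joints where it was a multiple of 3 made up 41.0 to 56.4% at Igkv3-1 and 48.7 to 75.1% at the other 5.

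**Figure D3:**
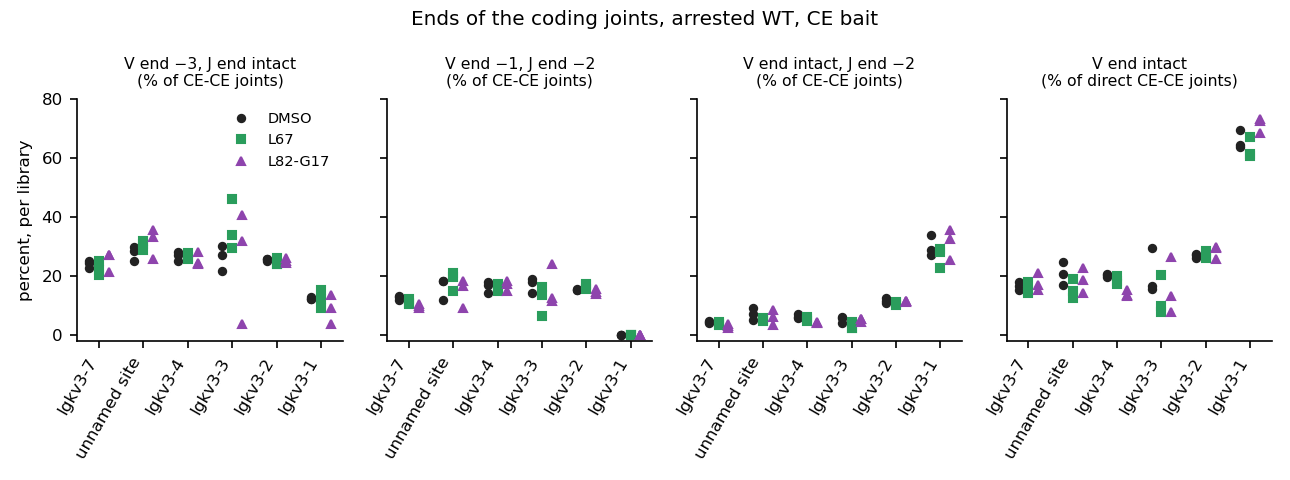
Share of 3 joint forms among coding joints, and of joints with an intact Vκ end among direct coding joints (y axes, percent), at each site (x axis) in arrested WT libraries with the Jκ1CE bait, 1 point per library. Igkv3-1 stands apart from the other 5 sites in the share with an intact Vκ end (60.6 to 73.3%); its 0 in the second panel comes from how a shared base is recorded.

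In WT cells with DMSO and the coding end bait, 19.8% of Igkv3-1 junctions had 1 shared base (18.3 to 21.7% in single libraries). The other sites had means of 10.7 to 13.2% (at most 15.8% in a library). The Igkv3-1 share includes the joint printed last above, 12.3% of its junctions. At the other sites the joint lacking 1 Vκ base and 2 Jκ1 bases, 12.7 to 16.97%, counts as direct. How the shared base is recorded thus enters both this share and the direct share. An intact Jκ1 end was kept in 27.8% of Igkv3-1 junctions, against 42.2 to 47.4% at the other sites. From the coding end bait 64.5% (Igkv3-1) to 74.4% (unnamed site) of junctions were direct, 13.002 to 16.01% carried inserted bases and 0.410 to 1.48% shared more than 1 base, the class called microhomology here. At least 96.2% of junctions in every library lay within 10 bp of the break. From the signal end bait 93.8 to 98.2% were direct. At Igkv3-2 the share of coding end junctions with insertions was called higher with arrest. It was 1.83, 7.80 and 9.22% when cycling and 13.99, 14.01 and 14.8% with DMSO. The difference was 7.99 percentage points (95% interval 3.58 to 12.4, limma adjusted p = 0.0384). The median change was 3.45 points over the 63 sites tested and 1.89 over the 5 of these sites that could be tested. Igkv3-2 was the only one called of the 5, against 12.7% of the 63. Igkv3-3 had too few junctions. No site was called without any 1 of the DMSO or L67 libraries or L82-G17 replicate 1 or 3, and 2 were called without cycling replicate 2.

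No other call was made on joint structure at these sites. For coding end insertions, limma called 0 of 63 sites with L67 and with L82-G17 (0% each; 1 and 2 sites at an unadjusted p under 0.05, none of the 6). For coding end microhomology, limma called 4.76% of the sites with arrest and 0% with either inhibitor (10, 3 and 1 at an unadjusted p under 0.05), and none of the 5 sites tested in any contrast. From the signal end only Igkv3-7 had enough junctions in all libraries, and it was called for neither measure. There limma called 2.08% of 48 sites for insertions with arrest and 0% in the other contrasts (insertions 4 and 4, microhomology 6, 5 and 1 sites at an unadjusted p under 0.05).

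In *Ku70*-/- libraries the sites from Igkv3-7 to Igkv3-2 were almost unused while Igkv3-1 was not. Over the 12 coding end libraries the 5 sites together held 23 of 1043589 Vκ junctions, 0.0220 per 1000 (exact 95% interval 0.0140 to 0.0331), against 75.3 per 1000 over the WT libraries. Over the 12 signal end libraries they held 7 of 1172337, 0.00597 per 1000 (exact 95% interval 0.00240 to 0.0123), against 52.8. Igkv3-3 had 0 coding end junctions, which allows up to 0.00287 per 1000 at 3 counts (exact 95% upper limit 0.00353). These intervals cover counting error only.

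Igkv3-1, only 5.11 kb from Igkv3-2 and with the same RSS, held 5541 coding end junctions (5.31 per 1000) and 3635 signal end junctions (3.10), seen in all 24 *Ku70*-/- libraries. The WT values were 8.46 and 5.85. On the far side of Igkv3-7, Igkv3-10 stood at 19.01 per 1000 in *Ku70*-/- and 18.5 in WT from the coding end bait, and Igkv3-12 at 22.2 and 28.6. From the signal end bait Igkv3-10 stood at 12.002 in *Ku70*-/- against 31.7 in WT and Igkv3-12 at 14.6 against 22.3. The site 12233 bp beyond Igkv3-7 stood at 0.132 in *Ku70*-/- and 0.176 in WT from the coding end bait and at 0.131 and 0.153 from the signal end bait. The interval from Igkv3-7 to Igkv3-2, 91.432 kb with the windows, held 38 *Ku70*-/- junctions, of which 8 lay away from the break sites, while the same length on its far side held 78539, of which 1993 lay away from break sites. In WT the interval held 124 junctions away from break sites. The number of copies of the interval in either line was not measured, so it cannot be told apart from a difference in joining.

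**Figure D4:**
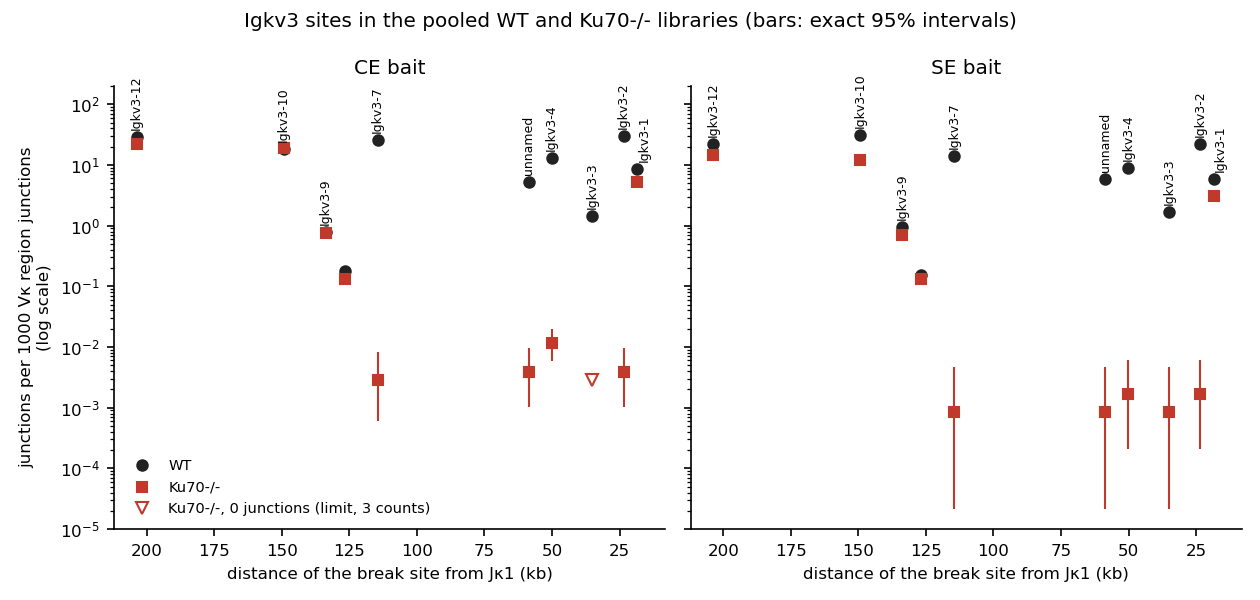
Pooled usage of Igkv3 sites and of the nearest site beyond Igkv3-7 (unlabelled) by distance from Jκ1 (x axis, kb; y axis, junctions per 1000 Vκ region junctions, log scale), WT in black and *Ku70*-/- in red, with exact 95% intervals for counting error. The 5 sites from Igkv3-7 to Igkv3-2 lie at or below 0.0115 per 1000 in *Ku70*-/-, while Igkv3-1 and the sites beyond Igkv3-7 lie within the same order of magnitude as WT.

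The junctions left at the 5 sites were few and scattered. There were 30 in all, 4 at Igkv3-7, 5 at the unnamed site, 14 at Igkv3-4, 1 at Igkv3-3 and 6 at Igkv3-2. They came from 13 of the 24 libraries with at most 5 in any library, and 29 were distinct. None came from the 6 cycling libraries, which held 1.65% of the *Ku70*-/- Vκ junctions, and 4 had a joint also present in WT libraries. The median loss was 18 bp from the Vκ end and 14 bp from the bait end, 23 of the 30 had lost at least 10 bp of the Vκ end, and 1 had both ends intact. Inserted bases were present in 13, more than 1 shared base in 3, and 26 joined ends of the same kind.

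One arrested DMSO library of *Ku70*-/- cells stood apart with each bait, and the study's tables do not list it. It held 104 coding end and 147 signal end junctions per distinct junction and none of the 30 junctions above. At Igkv3-1 it had 40 coding end junctions, all the same joint, and 841 signal end junctions, of which 813 were 1 joint. Differences at Igkv3-1 with junctions counted as deposited are therefore given with and without it. The pooled usage above and its plot by distance from Jκ1 include it. Values from distinct junctions below include it too.

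Igkv3-1 usage in *Ku70*-/- cells was not called different in any contrast with junctions counted as deposited. From the coding end bait it was 5.85, 6.11 and 8.46 per 1000 when cycling and 0.416, 5.52 and 7.86 with DMSO, the lowest being the unlisted library. It was 6.08, 6.48 and 6.72 with L67 and 3.95, 4.10 and 5.04 with L82-G17. The limma log2 difference with arrest was −1.37 (95% interval −3.34 to 0.60), or −0.05 without the unlisted library, against 22.3% of 94 sites called. With distinct junctions counted once and a filter of 5, the unlisted library included, it was called lower with arrest (−1.02, limma adjusted p = 0.0308, against 10% of 100 sites). The unlisted library held 1 distinct Igkv3-1 joint of 927 distinct junctions, and the other DMSO libraries 79 of 13386 and 58 of 12470. The cycling libraries held 4 or 5, and the difference is not given without the unlisted library. L67 gave 1.28 and L82-G17 0.72, or −0.04 and −0.60 without that library, and limma called 0% of the 94 sites with either (0 and 4 at an unadjusted p under 0.05).

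From the signal end bait Igkv3-1 was at 1.58, 6.07 and 7.19 when cycling, 1.86, 2.83 and 5.91 with DMSO, 1.65, 3.21 and 5.56 with L67, and 1.22, 1.98 and 1.98 with L82-G17. The L82-G17 libraries overlapped those of every other treatment. The DMSO value of 5.91 is that of the unlisted library. The differences were −0.47 with arrest (95% interval −2.03 to 1.08; 14.4% of 97 sites called), −0.03 with L67 and −0.89 with L82-G17 (95% interval −2.45 to 0.66), or −0.93, 0.43 and −0.44 without that library. Limma called 0% of the 97 sites with either inhibitor (1 and 3 at an unadjusted p under 0.05).

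The makeup of joints at Igkv3-1 differed between libraries of the 2 lines, which the choice of sites by usage did not fix. From the coding end bait with DMSO, junctions within 10 bp of the break were 98.7, 99.0 and 99.4% in WT and 47.6 and 65.9% in *Ku70*-/-, with 0% in the unlisted library. Joints to the signal end of Igkv3-1, or hybrid joints, were 0, 0 and 0.180% in WT against 3.53 and 10.9%, and 0% in the unlisted library. Junctions with more than 1 shared base were 1.28, 1.51 and 1.65% against 10.9 and 16.3%, and 100% in the unlisted library. Junctions with inserted bases were 12.3, 14.9 and 15.3% in WT against 5.73 and 7.67%, and 0% in the unlisted library. Direct joints were 62.1, 64.9 and 66.6% in WT against 50.4 and 54.8%, and 0% in the unlisted library.

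The groups did not overlap for direct joints, insertions, microhomology or the share within 10 bp, which gives an exact two-sided permutation p of 0.1, the smallest that 3 against 3 libraries allow. How many other Vκ sites separated the lines in this way was not counted. The differences of means were −29.5 points for direct joints, −9.70 for insertions, 40.9 for microhomology and −61.2 within 10 bp. For hybrid joints the difference was 4.76 points (exact permutation p = 0.4). Without the unlisted library they were −11.9, −7.47, 12.1, −42.3 and 7.17 points, each with an exact permutation p of 0.2, the smallest that 2 against 3 allow. None of these tests could reach 0.05. With each distinct junction counted once, insertions were 62.8 to 65.4% in WT against 0 to 13.8%, a difference of −55.3 points, and direct joints turned to 5.12 points higher in *Ku70*-/- (exact permutation p = 0.1 and 1). Direct joints in *Ku70*-/- then ranged from 0 to 46.8%, against a WT mean of 24.9%. The lowest value of both classes, 0%, is that of the unlisted library, which held 1 distinct joint. These differences are not given without that library.

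From the signal end bait hybrid joints were 0, 0 and 3.40% in WT against 25.7 and 37.4% in *Ku70*-/-, and 100% in the unlisted library. The difference was 53.2 points (exact permutation p = 0.1), or 30.4 without that library (p = 0.2 by the same exact test). Within 10 bp lay 99.6, 99.6 and 99.8% in WT, 53.4 and 58.4% in *Ku70*-/- and 99.9% in the unlisted library. Direct joints were 95.9, 97.8 and 98.7% in WT against 60.5 and 63.9%, with 96.8% in the unlisted library. With distinct junctions counted once they were 15.3 points higher in *Ku70*-/- (exact permutation p = 0.3), the unlisted library and its 7 distinct joints included. Over all 3 libraries a group the difference was −23.7 points for direct joints and −29.1 within 10 bp, where the groups overlap (exact permutation p = 0.2 and 0.4). It was −1.35 for insertions and 9.16 for microhomology (exact permutation p = 0.1 each), or −35.3 and 9.68 by distinct junctions (exact permutation p = 0.1 and 0.3). Without the unlisted library these 4 differences were −35.2, −43.8, −1.15 and 12.5 points (exact permutation p = 0.2 each). Of the distinct coding end joints at Igkv3-1, 15 were found in both lines, 6.25% of the 240 in WT and 3.58% of the 419 in *Ku70*-/-. For the signal end 11 were shared, 19.3% of 57 and 5.12% of 215.

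Within *Ku70*-/- cells, Igkv3-1 could be set beside the other Vκ sites in libraries where it had at least 50 junctions. Its coding end hybrid joints lay below the site medians in arrested cells. They were 3.53 and 10.9% in the 2 listed DMSO libraries against medians of 24.9 to 33.9%, 8.34 to 14.6% with L67 against 33.1 to 34.5%, and 3.84 to 9.63% with L82-G17 against 20.8 to 23.6%. In the 2 cycling libraries with enough junctions (55 and 59, from 5 distinct joints each) they were 45.5 and 93.2% against medians of 36.2 to 48.3%. The remaining cycling library, with 46 junctions from 4 distinct joints, had 0% hybrid joints and 56.5% insertions. Insertions from the coding end were 5.73 and 7.67% with DMSO against medians of 0.427 to 2.02%, 2.07 to 2.46% with L67 against 1.87 to 2.09%, 0.476 to 4.44% with L82-G17 against 1.69 to 2.11%, and 0% in the same 2 cycling libraries. In the listed coding end DMSO libraries 47.6 and 65.9% lay within 10 bp, against medians of 37.2 to 41.8%. Direct joints there were 50.4 and 54.8% against 47.5 to 52.2%. Junctions with more than 1 shared base were 10.9 and 16.3% against 1.32 to 16.5%. From the signal end, hybrid joints at Igkv3-1 ranged across the site medians, with 25.7 and 37.4% in the listed DMSO libraries and 100% in the unlisted one (medians 36.7 to 51.3%), 21.6 to 69.8% for L67 (53.2 to 59.96%) and 25.9 to 44.3% for L82-G17 (37.4 to 41.4%). With 2 or 3 libraries of 1 line these are descriptions without a test.

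**Figure D5:**
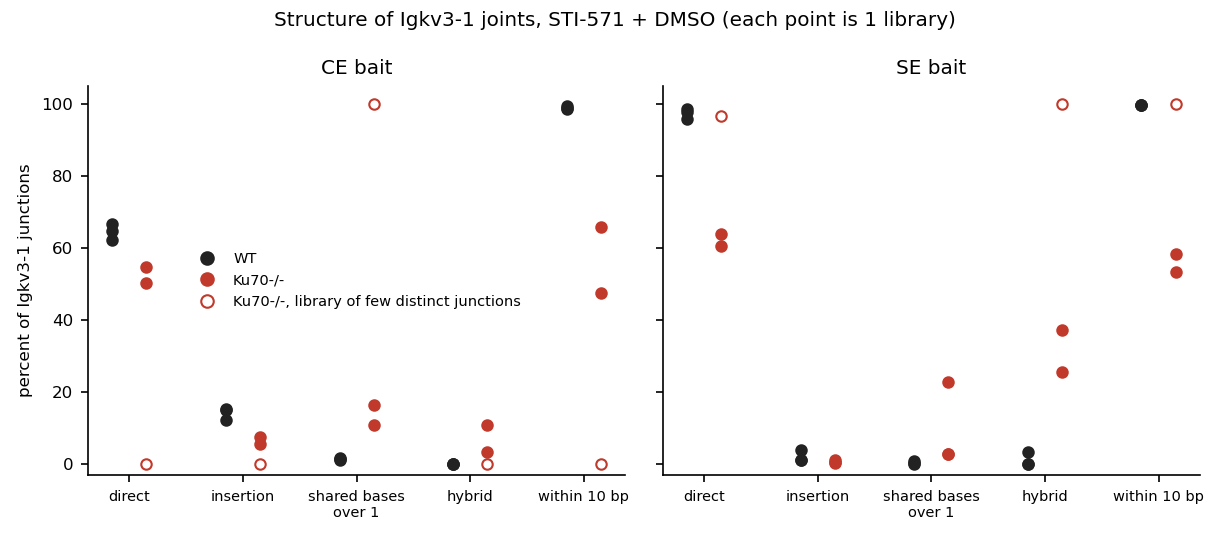
Makeup of Igkv3-1 joints (y axis, percent of Igkv3-1 junctions; x axis, class of joint) in arrested DMSO libraries, 1 point per library, WT in black, *Ku70*-/- in red and the *Ku70*-/- library of few distinct junctions as open circles. Filled red points of the share within 10 bp lie between 47.6 and 65.9%, below all WT points.

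Sites whose usage moved most like these over the 24 WT libraries were found by Pearson's r of log2 usage against 107 other sites, as a description over libraries that fall into treatment and bait groups. For Igkv3-7 they were Igkv4-74 (0.834) and Igkv3-12 (0.824). For Igkv3-4 they were Igkv6-25 (0.732) and Igkv3-12 (0.728), for Igkv3-3 Igkv1-117 (0.893) and Igkv14-100 (0.891), for Igkv3-2 Igkv6-25 (0.953) and Igkv1-133 (0.917), and for Igkv3-1 Igkv14-100 (0.877) and Igkv6-25 (0.829). For the unnamed site they were an unnamed site near base 68911371 (0.803) and Igkv2-112 (0.766).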

How the data were processed

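The 48 libraries were lists of junctions from HTGTS-JoinT-seq, 3 in each of 16 groups of genotype, treatment and bait end. The authors demultiplexed the read pairs, trimmed adapters (SeqPrep), took each library down to a fixed number of read pairs (Seqtk), mapped to mm9 with the translocation pipeline keeping duplicates, and used an in-house script to recover joints that map within the bait locus; the submitters' notes also name Bowtie2, and versions are not given in the sources used here. The deposited files hold 1 line per junction with its genome and read positions and no normalized values; junctions were counted from these lines, 8294 to 385847 per library. Vκ break sites were places of at least 30 junctions from the signal end bait, merged within 50 bp and named from GENCODE genes on NCBIM37 (mm9).

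Usage (junctions per 1000 of the Vκ region, plus the value of 1 junction) was taken on the log2 scale and, for sites averaging 50 junctions or more, fitted with limma 3.58.1 (R 4.3.3) over 12 libraries of a bait and genotype, or 24 WT libraries to compare baits. P-values were two-sided and adjusted by Benjamini-Hochberg over all sites, with a threshold of 0.05. Percentages of joint classes were fitted likewise over sites with at least 50 junctions in every library. Structure at Igkv3-1 was compared between genotypes by exact two-sided permutation (scipy 1.17.1), and shares have exact Clopper-Pearson 95% intervals or the limit of 3 counts, which cover counting error only. The usage test was checked on simulated data. Replicate numbers follow the order of the libraries and only name them. The study's analysis of variance was not used with groups of 3.

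The members and lists were chosen with earlier results of these data known. Sites named are the 6 members, the nearest site beyond them and, for each member, the 2 sites outside the 6 best correlated with it. That correlation was of usage over the WT libraries. The other Igkv3 sites were counted as a family. Sites named for their shared RSS, and Igkv3-9, were chosen after their values were seen. Alternatives were a window of 100 bp, other denominators, distinct junctions counted once, 0.5 junction added, filters of 10 (usage) and 200 (structure), a variance trend, same-kind joints only, and leaving out each library or the unlisted ones. A filter of 5 on distinct junctions, fits of the 9 arrested libraries alone, and counts over sites averaging 50 junctions in both groups of an arrest contrast were chosen after seeing the data. Gene promoters and proteins of these segments were not used here.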

Additional observations from a re-analysis of the deposited data

Results flagged for a closer look

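The change of usage with arrest in WT cells differed between the 2 bait ends, by the interaction term of the limma fit over 24 libraries with junctions counted as deposited, at the 3 sites that averaged 50 junctions in both groups of both baits. The signal minus coding difference of the log2 changes was 1.74 at Igkv3-7 (adjusted p = 2.83e-05), 1.97 at the unnamed site (adjusted p = 0.0122) and 1.64 at Igkv3-4 (adjusted p = 0.00485). Its fitted values of 2.67 at Igkv3-3, 3.22 at Igkv3-2 and 4.74 at Igkv3-1 are descriptions, since these sites averaged under 50 junctions in the cycling signal end libraries. The cycling signal end values behind all 6 rest on 0 to 5 distinct joints a library, and the part of that in the differences was not tested. With distinct junctions counted once and a filter of 5, chosen after seeing the data, the difference was 1.23 at Igkv3-2 and −1.72 at Igkv3-3. Both are descriptions, since these sites held at most 1 distinct signal end joint in a cycling library. The unnamed site (−0.19), Igkv3-4 (−0.10), Igkv3-7 (0.53) and Igkv3-1 (0.82) were not called. Such counts do not measure usage at the signal end.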

How the results depend on the processing

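Apart from leaving out libraries, alternatives left the call and direction of single sites as reported in 339 of 375 cases, and 168 of the 186 counts and other main values as reported. Counting each distinct junction once moved most of the rest, and the cause was not tested; for signal joints, nearly all 1 form, such counts do not measure usage. Of the 6 sites it left 1 called for coding end arrest in place of 5 (4 sites tested), 1 for L82-G17 with the coding end bait in place of 3, 0 for the bait difference with DMSO in place of 1, and 1 for the change of that difference with arrest in place of 6 (3 tested). With a filter of 5 on distinct junctions these were 2, 1, 0 and 2 (Igkv3-2 as before, Igkv3-3 in the opposite direction), and signal end arrest had 2 in place of 6. Counts at Igkv3-3, and signal end counts at Igkv3-2 and Igkv3-1, held at most 1 distinct joint in each cycling library, so calls there are descriptions. Directions turned for arrest at Igkv3-4 (0.029) and Igkv3-2 (−0.071) with the coding end bait and, with the filter of 5, at Igkv3-7 (−0.28), the unnamed site (−0.55) and Igkv3-4 (−0.076) with the signal end bait. They also turned for the bait difference with DMSO at Igkv3-7 (0.11), Igkv3-2 (0.27) and Igkv3-1 (0.14), for its change with arrest at the unnamed site (−0.19), Igkv3-4 (−0.10) and Igkv3-3 (−1.72), and for L67 or L82-G17 at the unnamed site with the coding end bait (−0.12), Igkv3-4 (0.14) and Igkv3-7 (−0.046) with the signal end bait. Igkv3-1 in *Ku70*-/- cells was then called lower with arrest (−1.02, coding end), and its direct joints were 5.12 and 15.3 points higher than in WT with the coding and signal end baits. These values include the unlisted library, which held 1 distinct Igkv3-1 joint from the coding end and 7 from the signal end. Taking junctions outside the 6 windows as denominator gave −0.00874 for L67 at the unnamed site, and taking all junctions gave 0.56 for signal end arrest at Igkv3-1 in *Ku70*-/-. Counting only sites that averaged 50 junctions in both groups left 3 sites called in place of 6 for signal end arrest and for the change of the bait difference, and 4 of 5 for coding end arrest. Fitting the 9 arrested libraries alone called 1 site with L67 and 5 with L82-G17 from the coding end and 1 with L82-G17 from the signal end. With libraries left out 1 at a time, called sites numbered 0 to 4 for coding end L82-G17, 0 to 1 for signal end L82-G17 (1 without cycling replicate 2), 1 to 3 for the bait difference with DMSO (2 and 3 without signal end cycling replicates 2 and 3), 0 to 2 for coding end insertions with arrest and 0 to 1 for microhomology with arrest (1 without cycling replicate 1). Igkv3-1 in *Ku70*-/- ranged from −0.038 to 2.07 (L67) and −0.60 to 1.501 (L82-G17) with the coding end bait and from −0.45 to 0.43 (L67) with the signal end bait. In WT, L67 ranged from −0.034 to 0.040 at the unnamed site (coding end), and from −0.13 to 0.034 at Igkv3-4 and −0.12 to 0.12 at Igkv3-2 (signal end). Distinct junctions with the filter of 50 could not be fitted for WT signal end usage or for Igkv3-1 in *Ku70*-/- cells. No paired analysis was possible because the labels give the libraries no replicate numbers. Depth limits the cycling libraries most, where values rest on few distinct joints.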
